A study of Rattus norvegicus with 8 samples.

Results

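Ion channel genes that let sensory neurons respond to heat, cold, irritants, acid, ATP and touch were followed across the 4 groups of the series: Trpv1, Trpv2, Trpa1, Trpm8, P2rx3, Asic1, Asic2, Asic3, Piezo1 and Piezo2. They were chosen by symbol for their function, and 9 of the 10 listed genes were found among 17381 genes. Piezo2 was not analysed here. Rat sensory neurons taken from dorsal root ganglia at embryonic day 15 were cultured for 7 days in microfluidic chambers, whose fine channels admit axons but hold back cell bodies, so that RNA can be collected from each side. The 4 groups were axonal RNA with a lentiviral short hairpin RNA against Pum2 (axonal shPum2), axonal RNA with a control hairpin (axonal shControl), somatic RNA with the Pum2 hairpin (somatic shPum2) and somatic RNA with the control hairpin (somatic shControl). Each group had 2 libraries, and every culture had received a lentivirus when it was plated. The labels give the somatic source as cell bodies together with axons, and they do not state whether replicates were separate cultures, so p-values measure the spread between these libraries, which may be technical. Somatic RNA was prepared with a standard library kit and axonal RNA with an ultra-low input kit, and the effect of the kit cannot be told apart from that of the compartment.

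The channels belong to families with different gates. TRP channels are cation channels that open to temperature or chemical ligands: Trpv1 answers to heat and capsaicin, Trpa1 to electrophilic irritants, Trpm8 to cold and menthol, and Trpv2, in heterologous cells, to strong heat. P2rx3 forms the ATP-gated receptor typical of small-diameter pain-sensing neurons. Asic1, Asic2 and Asic3 are subunits of acid-sensing sodium channels. Piezo1 is a mechanically gated cation channel best known from vascular and connective tissue cells, and Piezo2 is its counterpart in touch and proprioceptive neurons. In sensory neurons these channel proteins work at the nerve ending, far from the cell body, and the series asked which RNAs are found in axons and soma and which depend on Pum2, an RNA-binding protein that represses mRNAs.

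Library totals were 11641947 to 16131611 counts in the axonal and 16725877 to 25821766 in the somatic libraries. Pum2 stood at 38.2 and 36.5 CPM (counts scaled to the library total) in somatic shPum2, against 164 and 159.5 CPM in somatic shControl libraries. It had a log2 difference of -2.13 ± 0.07 (SE; adjusted p = 0.0247, edgeR quasi-likelihood with Benjamini-Hochberg adjustment), a call that was lost without either somatic shControl library while the difference stayed at -2.13 to -2.12. In axonal RNA it was at 1.46 and 7.07 CPM with shPum2 and at 3.25 and 0.443 CPM with shControl, so the groups overlapped. Neuronal markers were abundant in every library, with a summed level of 17591 to 33039 CPM in axonal and 29833 to 35076 CPM in the somatic libraries, over the 10 of 11 listed genes with a row. The 4 nociceptor markers (Calca, Tac1, Scn10a, Scn11a) summed to 148 to 634 CPM in axonal and 1937 to 2599 CPM in the somatic libraries. Marker lists of other cells differed between libraries. Fibroblast markers were highest in replicate 1 of somatic shPum2, at 8303 CPM, against 1541 to 3108 CPM in the other somatic libraries. Macrophage markers summed to 193 to 3195 CPM in axonal and 25.02 to 105 CPM in the somatic libraries. In bulk RNA, fewer cells of a type and less RNA per cell cannot be told apart.

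The level of each channel gene was compared per transcript length, in TPM (counts scaled for transcript length and library). P2rx3 was the most abundant of the 9, with 152 and 148 TPM in somatic shPum2 and 119.8 and 136 TPM in somatic shControl libraries. Asic1 followed with 56.4 and 50.8 TPM in somatic shPum2 and 65.2 and 57.6 TPM in somatic shControl libraries. Trpv2 had 42.9 and 48.6 TPM in somatic shPum2 and 49.0 and 55.3 TPM in somatic shControl libraries. These 3 genes kept their order in both somatic groups without overlap between neighbours. Trpv1 was lower, at 9.68 and 10.2 TPM in somatic shPum2 and 11.8 and 12.6 TPM in somatic shControl libraries. Asic3, the acid sensor enriched in sensory neurons, had 10.3 and 8.003 TPM in somatic shPum2 and 12.6 and 10.5 TPM in somatic shControl libraries, and its values overlapped those of Trpv1 in both groups.

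The remaining 4 genes were scarce in somatic RNA. Asic2 was at 2.74 and 5.21 TPM in somatic shPum2 and at 3.33 and 4.05 TPM in somatic shControl libraries. The cold sensor Trpm8 was at 2.68 and 3.59 TPM in somatic shPum2 and at 1.90 and 3.20 TPM in somatic shControl libraries. Piezo1 was uneven, with 11.7 and 2.38 TPM in somatic shPum2 and 5.04 and 2.44 TPM in somatic shControl libraries. In somatic shPum2 the ranges of Piezo1, Asic2 and Trpm8 overlapped their neighbours in the order, and in somatic shControl those of Piezo1 and Asic2 did. Trpa1 was last in both, at 0.368 and 0.379 TPM in somatic shPum2 and at 0.438 and 0.733 TPM in somatic shControl libraries, from 14 to 33 counts per library.

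**Figure D1:**
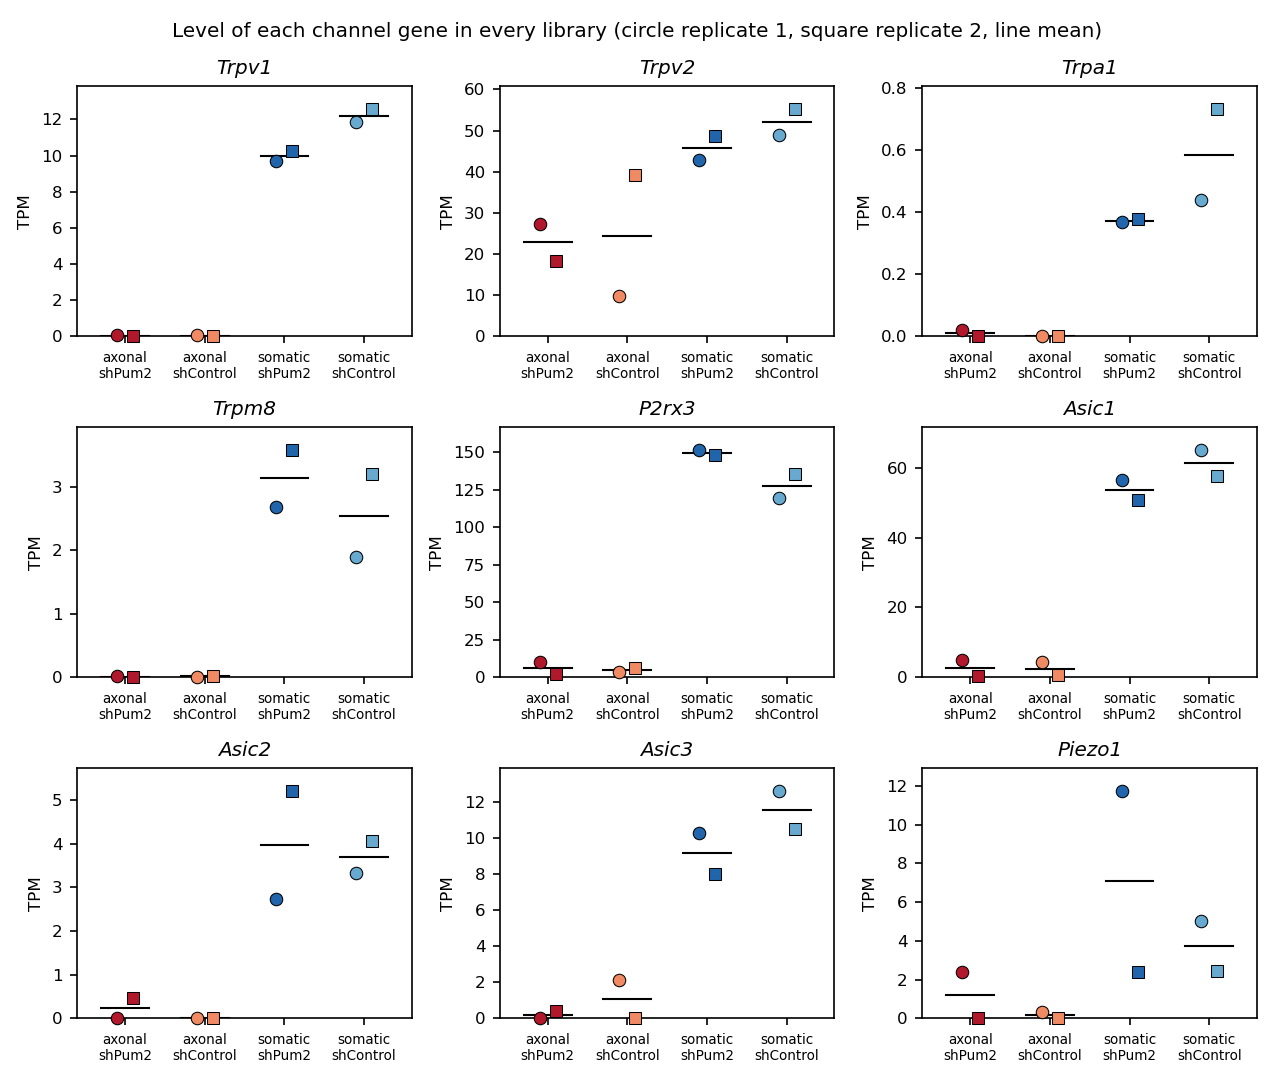
Level of each channel gene in TPM (linear axes that start at 0 and differ between panels) in the 8 libraries, with circles for replicate 1, squares for replicate 2 and lines for group means. P2rx3 reaches 152 TPM in somatic libraries, Trpv2 alone keeps at least 9.88 TPM in every axonal library, and Trpv1 lies below 0.1 TPM in all 4 axonal libraries.

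The first comparison asked whether knockdown of Pum2 changed the channel RNAs in the somatic compartment. None of the 9 genes passed an adjusted p of 0.05, and none had an unadjusted p below 0.05. DESeq2 called none of them either. Among all 12348 genes tested, 0.0081% passed, which was Pum2 itself, and 0.599% had an unadjusted p below 0.05. The median log2 difference was -0.19 over the 9 channels and 0.01 over all genes tested, and the adjusted p was 0.9997 for each of the 9 in edgeR.

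Asic1 had the smallest unadjusted p of the channels. It stood at 121.5 and 111 CPM in somatic shPum2 and at 139.8 and 125 CPM in somatic shControl libraries, a log2 difference of -0.20 with a 95% interval of -0.42 to 0.02 (unadjusted p = 0.0631 and adjusted p = 0.9997, edgeR). Both shPum2 libraries were below both shControl libraries. Trpv1 was at 15.5 and 16.6 CPM in somatic shPum2 and at 18.9 and 20.4 CPM in somatic shControl libraries, again without overlap, with a log2 difference of -0.30 and an interval of -0.68 to 0.08. P2rx3 lay the other way, at 326 and 322 CPM in somatic shPum2 and 256 and 295 CPM in somatic shControl libraries, with a log2 difference of 0.22 and an interval of -0.07 to 0.51. For these 3 genes both ends of the interval lay within 1 log2 unit of 0.

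Asic3 had a log2 difference of -0.35 (interval -0.89 to 0.20) and Trpa1 one of -0.67 (interval -1.92 to 0.59), and for each the CPM of both shPum2 libraries was below that of both shControl libraries. Groups without overlap were thus found for 5 of the 9 channels, 4 lower and 1 higher with shPum2, where 24.5% of all genes tested had groups without overlap, 13.0% lower and 11.5% higher. Trpv2 (-0.19, interval -0.55 to 0.17), Trpm8 (0.29, interval -0.67 to 1.25) and Asic2 (0.10, interval -1.03 to 1.24) had overlapping groups. The nociceptor marker list was also lower in sum, with 2051 and 1937 CPM in somatic shPum2, against 2599 and 2373 CPM in somatic shControl libraries. Of its markers Calca, Tac1 and Scn10a were lower without overlap. Scn11a overlapped, at 130 and 103 CPM in somatic shPum2 and 163 and 126 CPM in somatic shControl libraries. Trpv1, Asic1, Asic3 and Trpa1 moved as the sum did and P2rx3 moved the other way. The part of the nociceptor markers in these values was not tested.

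Piezo1 had the largest positive somatic difference, a log2 value of 0.90 with an interval of -1.15 to 2.94. It stood at 56.5 and 11.6 CPM in somatic shPum2 and at 24.1 and 11.9 CPM in somatic shControl libraries. A single library, replicate 1 of shPum2, was high, and without it the log2 difference was -0.60 (adjusted p = 1, edgeR). It lay between 0.48 and 1.62 when any of the other 3 somatic libraries was left out. The fibroblast markers were also highest in that library, with summed values of 8303 and 1545 CPM in somatic shPum2 and 3108 and 1541 CPM in somatic shControl libraries. All 7 fibroblast markers, which include the collagens Col1a1, Col1a2 and Col3a1, had counts in each somatic library. The 4 endothelial markers (Cdh5 and Kdr among them) summed to 41.1 and 17.7 CPM in somatic shPum2 and to 26.7 and 14.1 CPM in somatic shControl libraries. Macrophage markers summed to 105 and 25.02 CPM in somatic shPum2 and to 46.3 and 30.8 CPM in somatic shControl libraries, and the 7 Schwann and satellite glia markers to 47.2 and 22.97 CPM in somatic shPum2 and 25.5 and 19.4 CPM in somatic shControl libraries. All 4 lists were thus highest in sum in replicate 1 of somatic shPum2, where Flt1, at 27.1 CPM, made up most of the endothelial sum. Single markers did not all follow. Kdr was at 6.16 CPM there and at 7.59 CPM in replicate 2, where Pecam1 and the glia marker Fabp7 were also highest. Cd74 was highest in replicate 1 of somatic shControl. The other markers were highest in replicate 1 of somatic shPum2, Pdgfra by little (27.1 CPM, against 20.5 to 26.1 CPM in the other somatic libraries). The part of any of these cell types in Piezo1 was not tested.

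**Figure D2:**
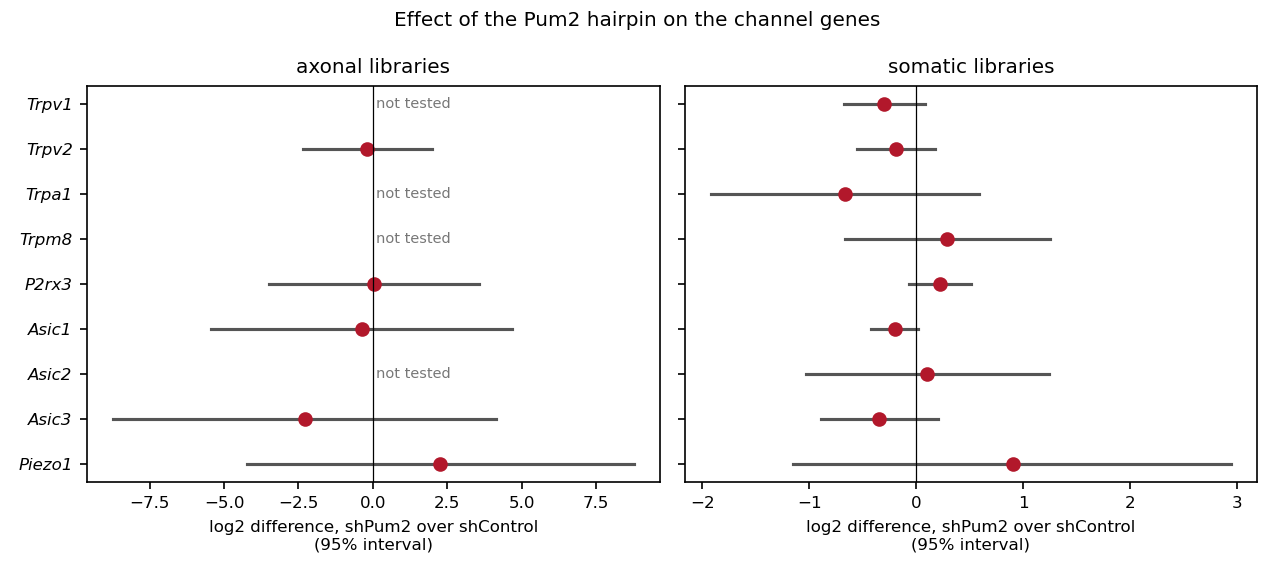
Log2 difference of shPum2 over shControl for the 9 channel genes in axonal (left) and somatic (right) libraries, as points with 95% intervals from edgeR; the axes differ in range. Every interval includes 0, and 4 genes with few axonal counts were not tested in axons.

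In the axonal compartment the same comparison was far less precise. The biological coefficient of variation was 125% in the axonal fit and 23.5% in the somatic fit. Trpv2, P2rx3, Asic1, Asic3 and Piezo1 passed the expression filter, and none of these 5 passed an adjusted or an unadjusted p of 0.05, also with DESeq2. Of all 8519 genes tested 0% passed with adjustment (159 genes passed with DESeq2) and 3.01% had an unadjusted p below 0.05. The groups overlapped for all 5 channels tested, while 27.8% of all genes tested had groups without overlap, 15.8% higher and 12.0% lower with shPum2. They also overlapped for the channels not tested, which had few axonal counts.

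Trpv2 was measured most evenly, at 89.8 and 71.7 CPM in axonal shPum2 and 36.6 and 133 CPM in axonal shControl libraries. Its log2 difference was -0.18 with an interval of -2.35 to 1.99. P2rx3 was at 47.1 and 10.5 CPM in axonal shPum2 and at 19.3 and 27.1 CPM in axonal shControl libraries, a log2 difference of 0.05 with an interval of -3.48 to 3.57. The intervals of the other 3 genes tested were wider still.

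Asic1 split by replicate number rather than by hairpin. It had 22.5 and 1.43 CPM in axonal shPum2 and 21.7 and 2.66 CPM in axonal shControl libraries, so that replicate 1 was high and replicate 2 low under both hairpins. Piezo1 showed the same split, with 23.97 and 0.124 CPM in axonal shPum2 and 3.59 and 0.222 CPM in axonal shControl libraries. Its log2 difference of 2.26 (interval -4.23 to 8.76) became -3.70 without replicate 1 of axonal shPum2, and that of Asic1, -0.38 (interval -5.44 to 4.68), became 1.84 without replicate 1 of axonal shControl. Fibroblast markers in the axonal libraries summed to 716 and 68.7 CPM with shPum2 and to 263 and 184 CPM with shControl, the libraries with the highest and lowest Piezo1 being also those with the highest and lowest sum. The macrophage sum was highest and lowest in the same 2 libraries, at 3195 and 193 CPM. The nociceptor sum was also highest and lowest in these 2 libraries, at 634 and 148 CPM. The neuronal sum was highest in replicate 1 of axonal shPum2, at 33039 CPM, and lowest in replicate 2 of axonal shControl, at 17591 CPM. The glia and endothelial sums were highest in replicate 2 of axonal shControl, at 89.3 and 32.2 CPM. Single fibroblast markers did not all follow their sum. Col1a2, Dcn, Lum and Fn1 were lowest in replicate 2 of axonal shControl. Pdgfra was at 0.172 CPM in replicate 1 of axonal shPum2 and highest in replicate 2 of axonal shControl, at 20.1 CPM. Piezo1 stood for 2 counts in replicate 2 of axonal shPum2 and for 3 in replicate 2 of axonal shControl. The part of any of these cell types was not tested.

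The remaining 4 channels had too few axonal counts to be tested. Asic2 had 0 and 26 counts in axonal shPum2 and 0 and 0 in axonal shControl libraries. Trpv1 had 2 and 1 counts in axonal shPum2 and 2 and 2 in axonal shControl libraries. Trpm8 had 1 and 0 counts in axonal shPum2 and 0 and 2 in axonal shControl libraries, and Trpa1 had 1 count in a single axonal shPum2 library and none in the others. A count of 0 in an axonal library allows a level of up to 0.186 to 0.258 CPM (3 counts), counting error alone. Asic3, which passed the filter, was in 1 library of each group, with 0 and 13 counts in axonal shPum2 and 51 and 0 in axonal shControl libraries.

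In the authors' deposited somatic table none of the 9 genes passed 0.05, where 2 of 17320 listed genes did. In the axonal one no channel with an adjusted p passed, where 357 of 17320 listed genes did. The authors' deposited somatic table gives Asic1 a log2 fold change of -0.16 with an SE of 0.09, and P2rx3 0.18 with an SE of 0.10. Pum2 has -1.71 there with an SE of 0.09 (adjusted p = 4.31e-70, the authors' DESeq2), where edgeR gave -2.13. Trpa1 has -0.04 with an SE of 0.06 and Piezo1 0.04 with an SE of 0.05. For these 2 genes edgeR gave larger differences, -0.67 and 0.90, and the cause was not tested. In the authors' deposited axonal table Trpv2 has -0.18 with an SE of 1.27, and 5 of the 9 genes have no adjusted p, namely Trpv1, Trpa1, Trpm8, Asic2 and Asic3.

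The second comparison set axonal against somatic RNA under each hairpin. Trpv1 was lower in axonal libraries under both hairpins, while its closest relative in the list, Trpv2, was present there at a similar share of counts as in the soma. Trpv1 averaged 0.117 ± 0.0776 CPM in axonal shPum2 and 16.1 ± 0.769 CPM in somatic shPum2 libraries (SD, n = 2 each). With shControl it averaged 0.159 ± 0.0165 CPM in axonal and 19.7 ± 1.07 CPM in the somatic libraries (SD, n = 2 each). From 3 axonal and 759 somatic counts, the axonal share was 0.67% of the somatic share with shPum2, with an exact 95% counting interval of 0.138% to 1.97%. With shControl it was 0.802% (interval 0.218% to 2.06%), from 4 axonal and 789 somatic counts. The log2 difference after TMM scaling was -5.65 with shPum2 (interval -8.39 to -2.91, adjusted p = 0.0204) and -5.34 with shControl (interval -8.02 to -2.65, adjusted p = 0.0208, edgeR).

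Trpv2 averaged 80.7 ± 12.8 CPM in axonal shPum2 and 72.7 ± 7.00 CPM in somatic shPum2 libraries (SD, n = 2 each). With shControl it averaged 84.7 ± 68.0 CPM in axonal and 82.6 ± 7.87 CPM in the somatic libraries, and the groups overlapped under both hairpins. Its TMM-scaled log2 difference was 1.67 (interval 0.07 to 3.27, adjusted p = 0.121) with shPum2 and 1.60 (interval 0.00 to 3.19, adjusted p = 0.119) with shControl (edgeR), which placed it at the 81 and 77.3 percentile of all genes tested. DESeq2 called Trpv2 higher in axonal RNA under both hairpins (log2 difference 1.98, adjusted p = 0.0465 with shPum2, and 1.93, adjusted p = 0.0464 with shControl). The sign for Trpv2 depended on the scale. Scaled by library totals the log2 difference was 0.15 with shPum2 and 0.04 with shControl, and in TPM the axonal mean was below the somatic one, at 22.8 ± 6.26 TPM against 45.8 ± 4.06 TPM with shPum2 and 24.5 ± 20.6 TPM against 52.2 ± 4.42 TPM with shControl (SD, n = 2 each).

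Macrophage markers took a larger share of axonal than of somatic reads, and Trpv2 is also known from macrophages. The 6 markers summed to 3195 and 193 CPM in axonal shPum2 and to 1545 and 2623 CPM in axonal shControl libraries, with 4 or 5 of the 6 detected and Cd74 at 0 in all 4. Lyz2 and Cd68 made up most of these sums. In replicate 2 of axonal shPum2, where the sum was lowest and Ptprc was at 0, Trpv2 stood at 71.7 CPM, against 89.8 CPM in replicate 1 with the highest sum. In axonal shControl Trpv2 was at 36.6 CPM in replicate 1, with a sum of 1545 CPM, and at 133 CPM in replicate 2, with a sum of 2623 CPM. Of the markers detected there, only Lyz2 was higher in replicate 2, at 2190 CPM against 816 CPM in replicate 1. Cd68, Aif1, Ptprc and Csf1r were lower in replicate 2, Csf1r at 0.296 CPM against 153 CPM. The part of macrophages in the axonal Trpv2 level was not tested. P2rx4, an ATP receptor known from microglia and macrophages, was at 65.6 and 0.062 CPM in those axonal shPum2 libraries. It was at 127 and 46.3 CPM in axonal shControl libraries.

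**Figure D3:**
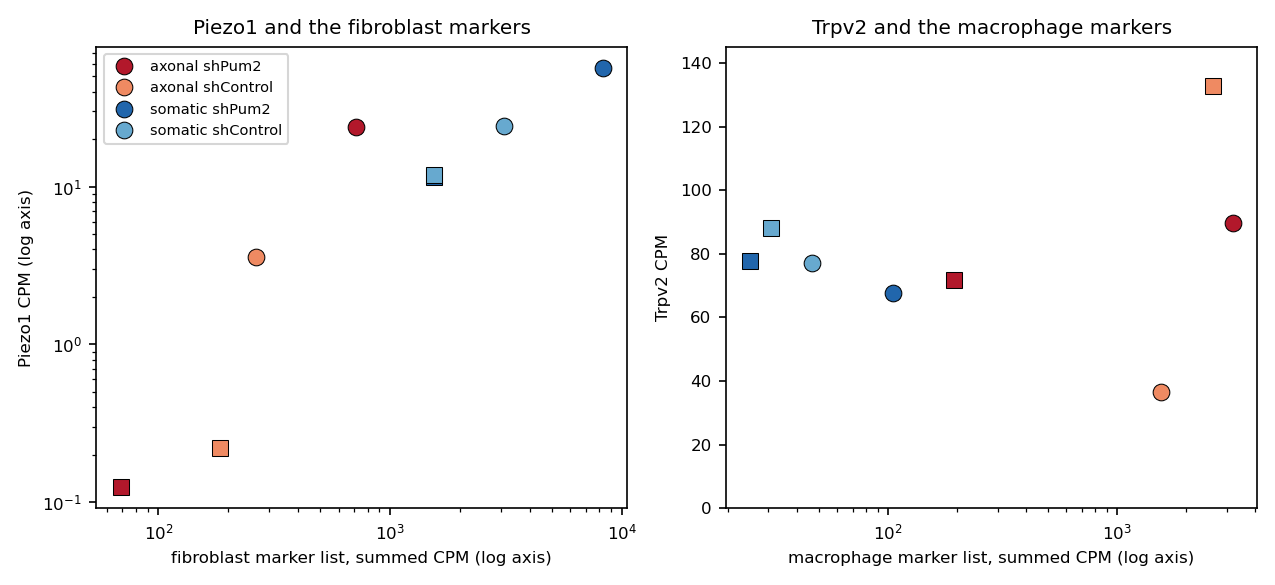
Left, Piezo1 against the summed fibroblast markers; right, Trpv2 against the summed macrophage markers; 1 point per library (circles replicate 1, squares replicate 2), in CPM, with log axes except for Trpv2. The 2 somatic replicate 2 points of the left panel coincide near 11.6 and 11.9 CPM, and Trpv2 lies between 36.6 and 133 CPM in axonal libraries whose macrophage sums run from 193 to 3195 CPM.

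P2rx3 was present in every axonal library at a lower share than in the soma. It averaged 28.8 ± 25.8 CPM in axonal shPum2 and 324 ± 3.20 CPM in somatic shPum2 libraries, and 23.2 ± 5.50 CPM in axonal shControl and 276 ± 27.1 CPM in somatic shControl libraries (SD, n = 2 each). The log2 difference was -2.15 ± 0.61 with shPum2 (SE; adjusted p = 0.0445) and -1.99 ± 0.60 with shControl (adjusted p = 0.0505, edgeR). These 2 values lie on either side of the threshold, and the difference between them was itself -0.16 with an interval of -2.13 to 1.81. With the replicate number as a block the adjusted p with shPum2 was 0.0733 (edgeR). The shPum2 call was also lost with median-ratio factors (adjusted p = 0.0503, edgeR), no expression filter (0.0667, edgeR) and limma voom (0.123). With shControl P2rx3 passed with DESeq2 (adjusted p = 0.013) and with library totals (adjusted p = 0.0172, edgeR). No other alternative fit of all 8 libraries called P2rx3 with shControl. Asic1 had an axonal share close to that of P2rx3, 8.88% of the somatic share with shPum2 (counting interval 7.85% to 10.001%) and 8.75% with shControl (7.74% to 9.85%). Because its axonal libraries differed so widely, the log2 differences of -2.03 and -1.83 did not pass (adjusted p = 0.325 and 0.336, edgeR).

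Trpm8 was nearly absent from axonal reads, with 1 axonal against 362 somatic counts with shPum2, a ratio of 0.468% (counting interval 0.0118% to 2.63%). With shControl it had 2 axonal against 256 somatic counts, 1.24% (interval 0.149% to 4.51%). It passed with shPum2 (log2 difference -6.09, adjusted p = 0.0382) and missed the threshold with shControl (-4.72, adjusted p = 0.059, edgeR). With the replicate number as a block the adjusted p with shPum2 was 0.0695 (edgeR). The shPum2 call was also lost with no expression filter (adjusted p = 0.0511, edgeR) and limma voom (0.0778). With shControl Trpm8 passed with DESeq2 (adjusted p = 0.00892) and with library totals (adjusted p = 0.0359, edgeR). No other alternative fit of all 8 libraries called Trpm8 with shControl. Trpa1 had 1 axonal count with shPum2, against 34 somatic counts, a ratio of 4.99% (counting interval 0.123% to 29.7%). With shControl it had 0 axonal against 47 somatic counts, at least 9.90-fold lower when set at 3 counts over the group. The fit called Trpa1 with shControl (adjusted p = 0.0246) and not with shPum2 (adjusted p = 0.101, edgeR). The shControl call was lost with DESeq2 (adjusted p = 0.137), limma voom (0.15) and no expression filter (0.0563), and with library totals Trpa1 passed with shPum2 (adjusted p = 0.0492, edgeR).

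The other 3 channels did not pass under either hairpin in the edgeR fit of all 8 libraries. DESeq2 called Asic2 as lower with shControl (log2 difference -6.42, adjusted p = 0.0368). Asic2, with 0 axonal counts in shControl against 186 somatic counts, was at least 39.2-fold lower there. With shPum2 its 26 axonal counts in a single library gave 18.5% of the somatic share (counting interval 11.9% to 27.8%). Asic3 reached 5.99% with shPum2 (counting interval 3.16% to 10.4%) and 20.5% with shControl (15.03% to 27.5%). Piezo1 reached 31.8% with shPum2 (27.9% to 36.1%) and 10.5% with shControl (7.59% to 14.2%). Each of these shares came mainly from a single library, and the intervals cover counting error alone, while the spread between replicates is much larger.

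**Figure D4:**
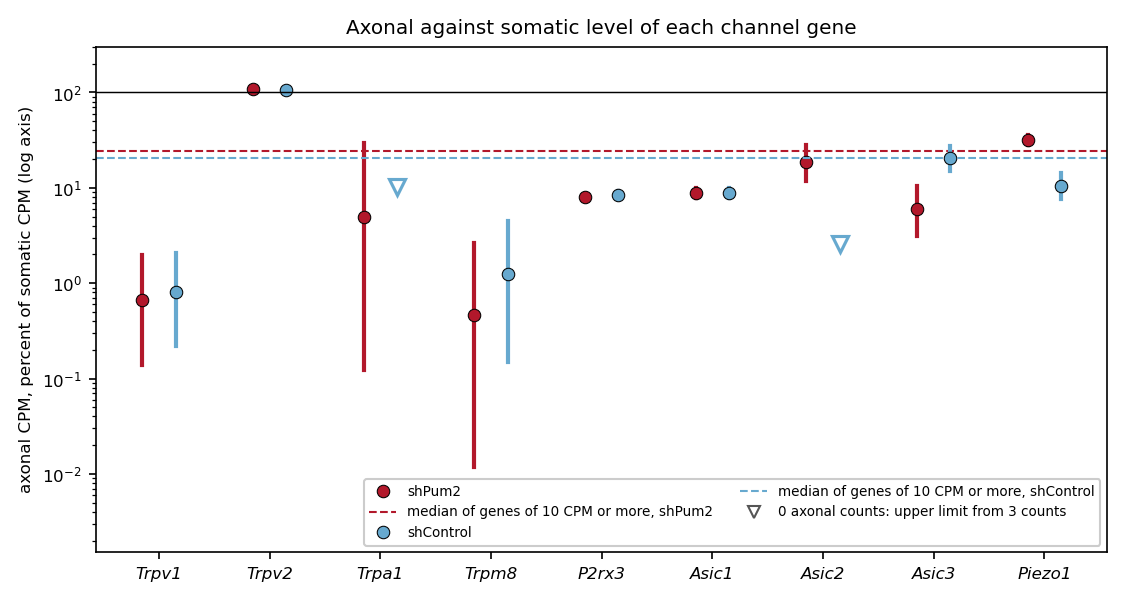
Axonal CPM as a percentage of somatic CPM (log axis) for each channel, from counts summed over the 2 libraries of a group, with exact 95% counting intervals and open triangles for upper limits where the axonal count was 0. Trpv2 lies at 108% and 106%, P2rx3 and Asic1 lie between 7.99% and 8.88%, Trpv1 and Trpm8 lie at 1.24% or below, and dashed lines mark the medians of 24.3% and 20.4% over 8125 genes.

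Over the 9 channels, 3 passed as lower in axonal RNA with shPum2 (Trpv1, Trpm8, P2rx3) and 2 with shControl (Trpv1, Trpa1), and none passed as higher in edgeR. Of all 12339 genes tested 24.7% passed with shPum2, 16.2% as lower and 8.44% as higher in axonal RNA. With shControl 27.9% passed, 18.5% as lower and 9.41% as higher. An unadjusted p below 0.05 was found for 5 of the 9 channels with shPum2, where 37.0% of all genes had one, and for 6 with shControl, where 41.9% had one. Both axonal libraries were below both somatic ones in CPM for 7 of 9 channels with shPum2, all but Trpv2 and Piezo1, where 80.2% of all genes had groups without overlap and 69.3% were lower. With shControl this held for 8 of 9, all but Trpv2, where 80.1% of all genes did not overlap and 68.7% were lower. Genes such as Trpv1, Trpm8 and Trpa1 entered the test through their somatic counts, so that with so few axonal counts they could pass only as lower, and the number that passed is a description. Among 8125 genes with at least 10 CPM in each somatic library, a class that includes Trpv1, the axonal share had a median of 24.3% of the somatic one with shPum2 and 20.4% with shControl. In this class 5.62% of genes had 3 or fewer axonal counts with shPum2 and 7.72% with shControl. Trpv1 had 3 axonal counts with shPum2 and 4 with shControl, so it was among them only with shPum2.

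The TMM-scaled differences between compartments move with the scaling. With library totals the median of all genes shifted by -1.37 with shPum2 and by -1.57 with shControl, and Trpv1 lay at -7.05 and -6.88, still past the threshold (adjusted p = 0.0152 and 0.0124, edgeR). No channel call between compartments held when any 1 of the 4 somatic libraries was left out, which leaves a group with a single library. Most calls over all genes were lost in the same fits, so the loss was not particular to the channels. Trpv1 had log2 differences between -5.94 and -5.22 over all single-library omissions, with an adjusted p of up to 0.128 (edgeR).

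The effect of the hairpin on the channels was then compared between compartments. None of the 9 passed, with DESeq2 as with edgeR, and the smallest adjusted p was 0.574 for Asic2, which rests on its 26 counts in a single axonal shPum2 library. Of 12339 genes 0% passed in edgeR, while DESeq2 called 609 genes, and 7.81% had an unadjusted p below 0.05, none of them a channel gene of the list. The intervals were wide, at -2.13 to 2.28 for Trpv2 around a difference of 0.08 and at -3.55 to 2.92 for Trpv1 around -0.31.

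The deposited files separate several transcripts of P2rx3, Trpv2 and Asic2. The P2rx3 transcripts of the axonal replicate 2 libraries were distributed differently from those of all other libraries. In the somatic libraries NM_031075 took 92.6% to 94.9% of the P2rx3 counts, NM_001270621 took 2.37% to 4.43% and the non-coding NR_073054 took 2.68% to 4.09%. In axonal RNA NM_031075 took 100% of the counts in replicate 1 of shPum2 and replicate 1 of shControl. In replicate 2 the assignment was to NM_001270621, with 100% in shPum2 and 92.7% in shControl. The axonal libraries, with 170 to 548 P2rx3 counts each, thus split by replicate number and not by hairpin.

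Trpv2 showed a steadier division. NM_001270797 took 79.6% and 86.9% in axonal shPum2, 70.7% and 46.6% in axonal shControl and 70.2% to 73.2% in somatic libraries. NM_001270798 took 8.71% and 13.1% in axonal shPum2, 29.3% and 49.6% in axonal shControl and 11.8% to 16.7% in somatic libraries. The third transcript, NM_017207, was at 0 in replicate 2 of axonal shPum2 and in replicate 1 of axonal shControl, and took 13.1% to 15.01% in somatic libraries. Both transcripts of Asic2 were found in the soma, NM_012892 with 42.4% to 55.9% and NM_001034014 with the rest. The 26 axonal counts were all assigned to NM_001034014. Reads shared between transcripts of 1 gene were divided by estimation, so the division is less certain than the sum per gene.

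**Figure D5:**
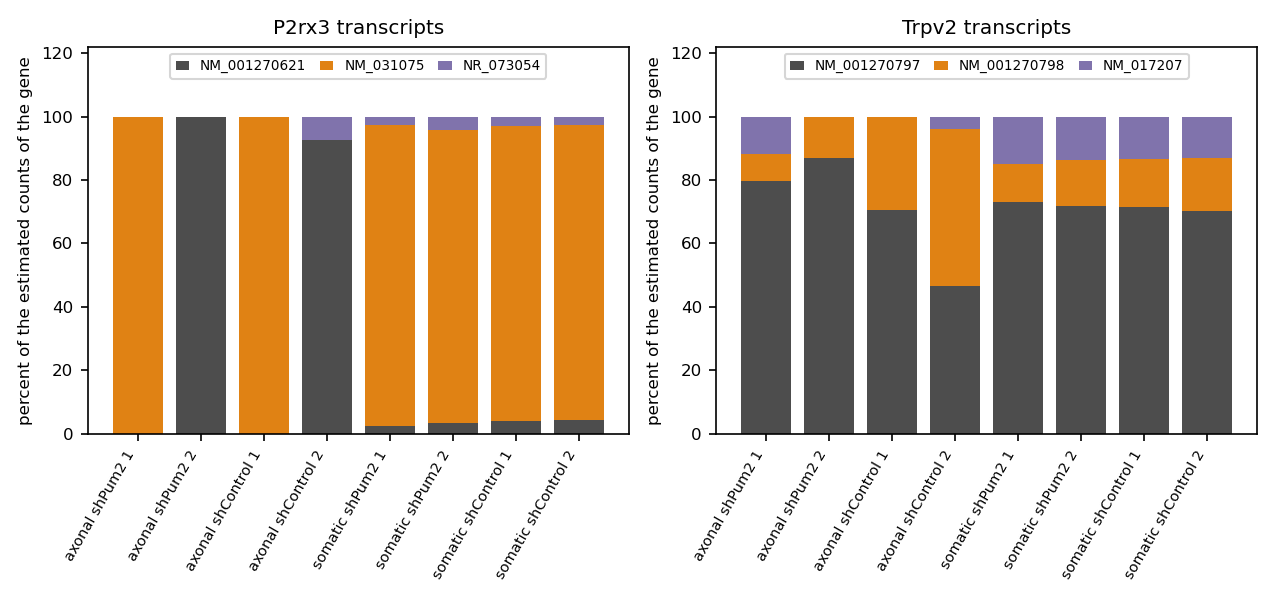
Share of the estimated counts of P2rx3 (left) and Trpv2 (right) assigned to each RefSeq transcript, in percent, in the 8 libraries; digits after the group are replicate numbers. NM_031075 holds at least 92.6% of P2rx3 in somatic libraries and either 100% or about 0% in axonal ones, while NM_001270797 is the main Trpv2 transcript in all libraries but replicate 2 of axonal shControl.

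Related genes gave a frame for these values. None of the genes tested in the 5 lists of relatives passed in the somatic or the axonal knockdown comparison. The lists had 15 other TRP channels, 7 other P2X, ASIC and ENaC channels, 6 other force-linked channels, 9 partners of the channels and 9 receptors that sensitise or quiet nociceptors tested in the soma. Their median log2 differences in the soma lay between -0.12 for the receptors and 0.35 for the P2X, ASIC and ENaC channels, beside 0.01 over all genes. In axons 5, 1, 3, 4 and 6 of them could be tested.

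Between compartments the relatives included genes that passed in either direction, where 16.2% of all genes tested passed as lower and 8.44% as higher with shPum2, and 18.5% as lower and 9.41% as higher with shControl. Relatives with few or no axonal counts entered through their somatic counts and could pass only as lower, so these numbers are a description. Of 14 other TRP channels 4 passed as lower in axonal RNA with shPum2 and 5 with shControl, Trpm4, Trpc4, Trpv3 and Trpv6 under both hairpins and Trpm3 with shControl, and none passed as higher. Trpm4 and Trpv3 had 0 counts in all 4 axonal libraries. Mcoln1, a lysosomal TRP channel and the most abundant of this list, was at 24.9 and 1.67 CPM in axonal shPum2 and 70.6 and 73.0 CPM in somatic shPum2 libraries, and at 39.0 and 0.296 CPM in axonal shControl and 62.7 and 70.0 CPM in somatic shControl libraries. It did not pass.

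Of 6 other P2X, ASIC and ENaC channels 4 passed as lower with shPum2 and 5 with shControl, P2rx5, P2rx7, Scnn1a and Asic4 under both hairpins and P2rx6 with shControl. Among them P2rx5, P2rx7 and Scnn1a had 0 counts in all 4 axonal libraries. Of 6 force-linked channels 3 passed as lower under both hairpins, Tmem63c and the potassium channels Kcnk2 and Kcnk4. Tmem63a passed as higher with shControl (log2 difference 6.07, adjusted p = 0.0402, edgeR), with 106 and 961 counts in axonal and 40 and 26 in somatic shControl libraries. Tmem63c stood at 0.429 and 0.124 CPM in axonal shPum2, against 89.2 and 99.9 CPM in somatic shPum2 libraries. With shControl it was at 0.342 and 0.443 CPM in axonal and 95.5 and 104.7 CPM in the somatic libraries (adjusted p = 0.00809 with shPum2 and 0.00916 with shControl, edgeR). These axonal levels stood for 2 to 6 counts per library.

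Of 9 partners of the channels 2 passed as higher under each hairpin, and 2 passed as lower with shPum2 (Akap5, Mdfi) and 3 with shControl (Akap5, Pirt, Prkce). S100a10, an annexin-binding protein that helps channels reach the plasma membrane, was higher in axonal RNA, with 1485 and 2200.3 CPM in axonal shPum2 and 469 and 528 CPM in somatic shPum2 libraries. With shControl it had 1772 and 1593 CPM in axonal and 497 and 517 CPM in the somatic libraries (adjusted p = 0.00767 with shPum2 and 0.00831 with shControl, edgeR). Stom, a stomatin that binds acid-sensing channels, also passed as higher under both hairpins, with 149 and 41.6 CPM in axonal shPum2 and 32.8 and 19.7 CPM in somatic shPum2 libraries. Its lowest axonal value was in the library with the lowest macrophage sum, which was not tested further. Pirt, a membrane protein that modulates Trpv1 and Trpm8, was at 33.2 and 28.9 CPM in axonal shPum2 and 187 and 202 CPM in somatic shPum2 libraries. With shControl it was at 9.07 and 13.8 CPM in axonal and 212 and 199 CPM in the somatic libraries, and it passed as lower with shControl (adjusted p = 0.0196, edgeR).

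Of the 9 nociceptor receptors tested, 3 passed as lower in axonal RNA with shPum2 and 6 with shControl, and none as higher. Oprm1, Ptger3 and Ptger4 passed under both hairpins, and Bdkrb2, Cnr1 and Oprk1 with shControl. Bdkrb2, the bradykinin receptor that sensitises Trpv1, was at 18.4 and 0.248 CPM in axonal shPum2 and 147 and 151 CPM in somatic shPum2 libraries. It passed as lower with shControl, at 0.257 and 1.03 CPM in axonal and 161 and 159.7 CPM in the somatic libraries (adjusted p = 0.0415, edgeR).

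Genes whose levels were most alike across the 8 libraries were found for the 3 most abundant channels by the root-mean-square difference in log2(CPM + 1), each gene centred on its own mean, among 10883 other genes. For P2rx3 they were Fam118a (0.19), Trim39 (0.20) and Sox4 (0.22), where the median gene differed by 1.35. For Asic1 they were Cpsf7 (0.16), Smc3 (0.18) and Klhdc8b (0.18), and for Trpv2 Spop (0.12), Kctd13 (0.15) and Gyg1 (0.17), with medians of 1.61. The 4 libraries of a compartment share their kit, and the measure is a description of these 8 libraries.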

How the data were processed

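RNA from axonal and somatic compartments was sequenced in 8 libraries, 2 per group. The authors deposited estimated counts and TPM per RefSeq transcript for each library, made with kallisto per the submitters' processing notes, which also name Rnor_6.0 and DESeq2; versions are not given in the sources used here. The authors' deposited comparison tables hold a mean normalised count (signal), log2 fold changes with standard errors, a test statistic (score) and p-values.

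Of 18321 transcripts, 94.7% were matched to a symbol through a RefSeq gene table of another assembly, used for names only. Estimated counts were summed per gene and rounded, and CPM were computed over library totals. Differences were tested with edgeR 4.0.16 (quasi-likelihood, TMM scaling, filterByExpr, Benjamini-Hochberg over all genes tested, threshold 0.05) in R 4.3.3. The knockdown comparisons each used the 4 libraries of a compartment, and the compartment and interaction comparisons used all 8 libraries. Intervals are 95% intervals from the t distribution, and counting intervals are exact and cover counting error only. DESeq2 1.42.0 and limma 3.58.1 served as alternatives. The test was tested on simulated data.

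The members and lists were chosen with earlier results of these data known. Genes that could be named were all members and Pum2, the 3 genes of each related list with the highest mean somatic TPM, any related gene past the threshold, and the 3 genes most alike to each of the 3 most abundant members with a mean of at least 1 CPM. P2rx4 and Stom are set beside the macrophage markers by the same rule. 1 listed gene is not reported here and was left out of its lists.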

Additional observations from a re-analysis of the deposited data

How the results depend on the processing

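No channel gene passed in the somatic or axonal knockdown comparison or in the interaction under any alternative tried. Over all genes, DESeq2 called 2 in the somatic comparison (edgeR 1), 159 in the axonal comparison (edgeR 0) and 609 in the interaction (edgeR 0), and without an expression filter 6 were called in the axonal comparison; the cause was not tested. Between compartments with shControl, edgeR called 3445 of 12339 genes, DESeq2 5021 and limma voom 2759. In edgeR it was 4215 with library totals, 3331 with median-ratio factors, 2369 with the replicate block and 2619 of 15051 without a filter. Beside these, the number of channels called between compartments with shControl was 2 in edgeR. It was 5 with DESeq2, 4 with library totals, 1 with limma voom and 1 without a filter. It stayed at 2 with median-ratio factors and with the replicate block. With shPum2 it was 3, and 4 with DESeq2, which called Trpv2, 4 with library totals, which called Trpa1, 2 with median-ratio factors, which lost P2rx3, and 1 with limma voom, 1 without a filter and 1 with the replicate block. Trpv1 passed under both hairpins in all of these. The fits share the same counts, and with so few of them in axonal libraries Trpv1 could pass only as lower. Direction turned for P2rx3 in axons with DESeq2 (-0.04) and median-ratio factors (-0.04), and in the interaction with library totals for Asic1 (0.16) and P2rx3 (0.08).

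The labels do not say that replicate numbers pair libraries. Same-number deviations correlated at 0.743 between the somatic groups over 11085 genes, and at 0.024 to 0.132 between the other groups over 4242 genes. With the replicate block the axonal knockdown difference was -0.16 for P2rx3 and 0.08 for Trpv2, and P2rx3 and Trpm8 lost their calls between compartments with shPum2.

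Leaving out 1 library at a time gave 0 to 31 genes called in the axonal comparison, 0 to 1 in the somatic one, 0 to 712 in the interaction, 0 to 4862 between compartments with shPum2 and 0 to 5540 with shControl. Channels called then numbered 0 to 4 with shPum2 and 0 to 5 with shControl. Log2 differences in axons ranged from -2.94 to 1.84 for Asic1, -0.97 to 0.62 for P2rx3, -3.7 to 5.34 for Piezo1, -0.75 to 3.42 for Pum2 and -0.77 to 1 for Trpv2. In the soma they ranged from -0.53 to 0.53 for Asic2, -0.6 to 1.62 for Piezo1 and -0.05 to 0.75 for Trpm8. Between compartments they ranged from -10.16 to 0.41 for Asic3 with shControl, and with shPum2 from -9.14 to 0.42 for Asic2 and -6.03 to 1.18 for Piezo1. In the interaction they ranged from -2.49 to 1.96 for Asic1, -0.1 to 9.44 for Asic2, -9.24 to 7.88 for Asic3, -0.97 to 0.31 for P2rx3, -4.41 to 4.37 for Piezo1, -5.1 to 3.37 for Trpm8 and -0.55 to 1.23 for Trpv2. Where an arm was left with 1 library, it was assumed to vary like the others. Depth limits Trpv1, Trpa1 and Trpm8 in axons, with 0 to 2 counts per library.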
